A study of Danio rerio with 7 samples.

Results

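The splicing and hnRNP genes described here are those whose current or array symbol began with hnrnp, hnrp, snrp, srsf, sfrs, sf3, prpf, lsm or u2af among the probes that the authors listed as lower in tbx5 morphants at 24, 30 or 48 hpf. They comprised 42 probes for 34 genes, of 6740 listed probes and of 3794 genes that could be named, on arrays of 43663 probes. The tbx5 morphants were AB strain zebrafish embryos injected at the 1-cell stage with tbx5-MO, a morpholino directed against translation of tbx5, and the WT embryos were uninjected AB embryos of the same age. RNA of whole, pooled embryos was used, labelled with Cy5 for the morphants and with Cy3 for WT, and both were hybridised together, with 2 arrays for the 24 hpf stage, 2 for 30 hpf and 3 for 48 hpf. The dyes were never swapped and no injected control was hybridised, so dye, injection and knockdown cannot be told apart. A morpholino of this kind need not change the level of its target mRNA, and tbx5 itself is not analysed here. Every value below is a log2 ratio of tbx5-MO over WT, so a value below 0 means a lower level in the morphants.

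Introns are removed from pre-mRNA by the spliceosome, which is built on each intron from small nuclear ribonucleoproteins (snRNPs). The Sm and LSm proteins form rings around the snRNAs, U2AF and the SF3A and SF3B complexes bring the U2 snRNP to the 3′ end and branch site of the intron, and the PRPF proteins work in the tri-snRNP and at the catalytic centre. SR proteins and hnRNPs bind exons and introns, SR proteins mostly favouring and hnRNPs often hindering the use of a splice site, and hnRNPs also package and escort mRNA.

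The hnRNPs made up 12 of the 34 genes, with 15 probes, and the SR proteins 5 genes with 7 probes. The Sm, LSm and other snRNP proteins made up 10 genes with 13 probes, the SF3 and U2AF proteins 5 genes with 5 probes, and the PRPF proteins 2 genes with 2 probes. Under its older symbol sfrs2ip the rule also took scaf11, an SR-related protein that binds splicing factors. By symbol alone the rule took in lsm12a, lsm14ab and lsm14b, which belong to branches of the LSm family not known as spliceosome subunits, the lsm14 proteins being known for mRNA repression in cytoplasmic granules. The lists differed in what they held. The 24 hpf list named 24 of the 42 probes, among them 12 probes for hnRNPs, the 30 hpf list named 8 and the 48 hpf list named 12, and 2 probes stood in more than 1 list.

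A probe entered a stage's list because it was low on every array of that stage, so its values there are given only as a description. The mean over the 24 hpf arrays ran from -4.14 to -0.64 over the 24 probes of the 24 hpf list, with a median of -1.29. It ran from -1.49 to -0.63 over the 8 probes of the 30 hpf list and from -1.58 to -0.62 over the 12 probes of the 48 hpf list, with medians of -0.96 and -0.99. The single values nearest to the limit of the lists were -0.61 for hnrnpa0l at 24 hpf, -0.59 for u2af1 at 30 hpf and -0.59 for snrpa1 at 48 hpf, and probes just outside the limit had no name here. To limit the effect of this choice, a gene was used at a stage only through probes that another stage's list named. This left 19 usable genes at the 24 hpf stage, 28 at 30 hpf and 25 at 48 hpf, and these sets shared only some of their genes. For 2 genes the choice was not kept out, since the probe of sf3a1 stands in the 24 and 30 hpf lists and that of scaf11 in the 24 and 48 hpf lists. Their values at those stages are low by choice and are described only. Counts that hold them, those of p-values included, are no test of these 2 genes. Several counts are also given without them and, over the named genes, without all genes in the same position. Such genes are left out because a probe of theirs was low on every array of the stage. Leaving them out therefore moves the counts and medians of that stage upwards by itself.

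**Figure D1:**
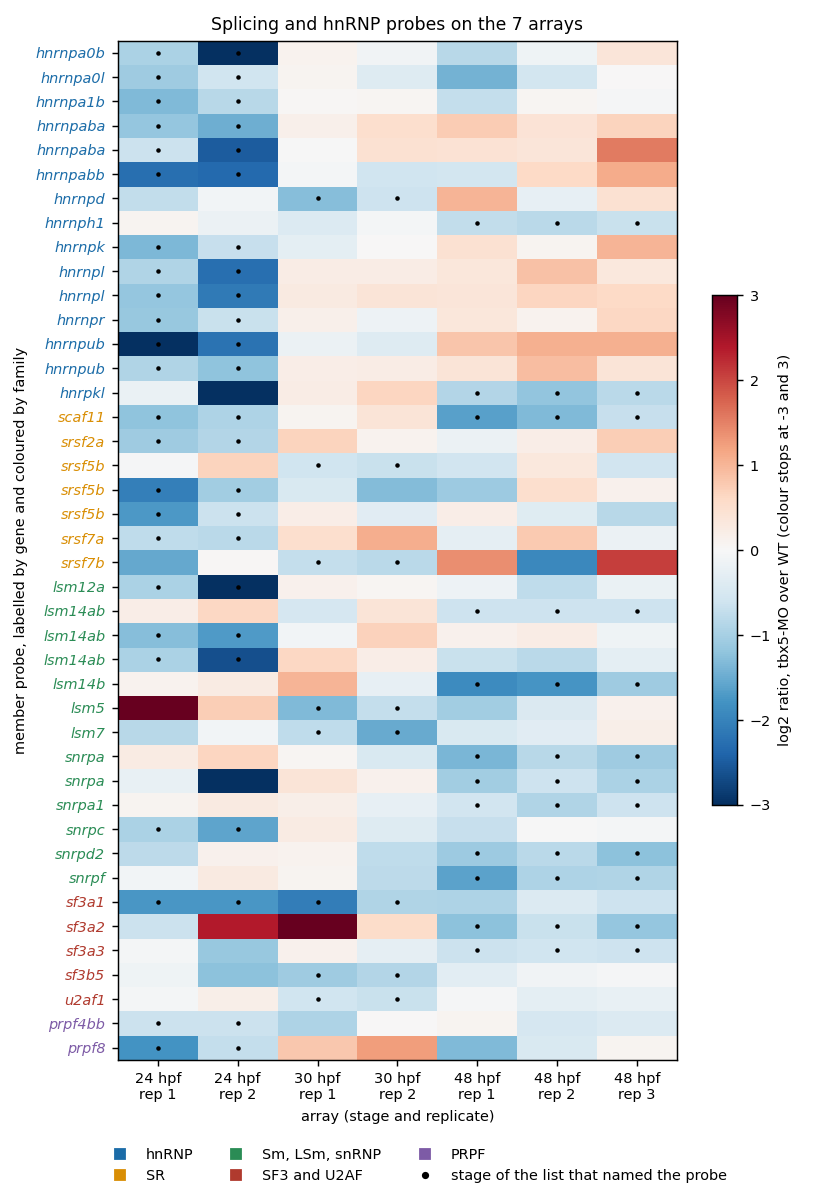
Log2 ratio of tbx5-MO over WT (colour) of the 42 splicing and hnRNP probes (rows, labelled by gene) on the 7 arrays (columns). Black points mark the stage whose list named a probe, where it is low by choice. Away from the points, most hnRNP probes were pale at 30 hpf, with gene means of -0.34 to 0.43, and many were red at 48 hpf.

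The array medians over all probes lay between -0.03 and 0.01 and the standard deviations between 0.77 and 1.49. Depending on the array, 11.4% to 67.3% of the values were shared by more than 10 probes. Intensities were not used here, and whether such values mark dim spots was not tested. Of the 42 member probes, 32 had no value shared by more than 10 probes on any array and 18 had 7 values that were each found once. No source used here states that replicate arrays held RNA of different embryos, so p-values measure array-to-array spread that may be technical, and the small number of arrays limits the precision. Over the 19 usable members the 2 arrays at 24 hpf correlated with r = 0.22, against 0.08 over 2254 named genes, and at 30 hpf r was 0.33 over 28 members and 0.27 over 2453 named genes. At 48 hpf r was 0.12, 0.65 and 0.05 over 25 members for arrays 1 and 2, 1 and 3, and 2 and 3. Over 3333 named genes it was 0.23, 0.26 and 0.19. The members here include sf3a1 and scaf11 at stages whose lists chose them as low on every array, and the named genes include others like them. Such genes can raise r, and r was not computed without them. These correlations are across genes, which are not independent replicates and share the same labelled RNA, and they are descriptions only.

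At 24 hpf most members with a large mean owed it to 1 of the 2 arrays, and the Sm, LSm and snRNP proteins lay on both sides of 0. Of the 19 genes usable at this stage 11 had a mean below 0 and 8 a mean above it, with a median of -0.32. The 2254 genes named in the same way had a median of -0.18, and 61.3% of them lay below 0. The mean was at least 1.5-fold lower in 7 members, or 36.8%, against 28.4% of those genes, and at least 1.5-fold higher in 2, or 10.5%, against 14.4%. Both arrays lay below 0 for 7 members, against 37.1% of the named genes, and above 0 for 4, against 19.3%, so the members' counts were near those of the other genes. Without sf3a1 and scaf11, the median of the remaining 17 was -0.05, beside -0.07 over 1961 named genes, with 9 below 0, or 52.9%, against 55.6%. Of these 17, 5 were at least 1.5-fold lower, or 29.4%, against 18.2%, and 2 higher, or 11.8%, against 16.6%. Both arrays lay below 0 for 5, or 29.4%, against 27.8%, and above 0 for 4, or 23.5%, against 22.1%. In limma, with Benjamini-Hochberg adjustment over all features, 13 of 43425 features passed at 24 hpf, which was 0.0299%, and 0 members did. At an unadjusted p under 0.05 there were 4 of 19, or 21.1%, against 15.1% of the named genes. Both shares hold genes that the 24 hpf list chose as low, whose p is no test. Without sf3a1 and scaf11 there were 2 of 17, lsm5 and hnrpkl, or 11.8%, against 7.24%.

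Among the U2 proteins, sf3a1, a subunit of the SF3A complex that U2 needs to bind the branch site, read -1.75 and -1.75 on the 24 hpf arrays. Its mean was 3.37-fold lower in the morphants than in WT, a description only, since the list of this stage holds the same probe. The SF3B subunit sf3b5 read -0.13 and -1.24, and the SF3A subunit sf3a3 read -0.05 and -1.14. Both genes lay below 0 on each array, but almost the whole of the difference came from array 2. For sf3a2, the remaining SF3A subunit, the arrays gave -0.64 and 2.39 and so opposite directions. The small U2AF subunit u2af1, which reads the AG at the end of the intron, was near 0 at -0.05 and 0.17. The median of these 5 genes was -0.60, but it was -1.14 on array 2 and -0.13 on array 1, and -0.27 without sf3a1.

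Among the Sm, LSm and snRNP proteins, lsm5, a subunit of the LSm ring of U6 snRNA, read 4.47 and 0.75. Its mean of 2.61 ± 2.64 (SD, n = 2) was the highest of any member at 24 hpf, its adjusted p in limma was 0.352, and most of it came from array 1. The other U6 ring subunit measured, lsm7, read -0.82 and -0.09. snrpa, an RNA-binding protein of the U1 snRNP, read 0.02 and -1.63 as the mean of 2 probes. On array 2 these probes were far apart, at 0.64 and -3.90. The Sm ring subunits snrpd2 and snrpf read -0.77 and 0.14, and -0.08 and 0.26, and the U2 protein snrpa1 read 0.09 and 0.27. lsm14b read 0.11 and 0.25 and lsm14ab read 0.19 and 0.62, and neither is known as a spliceosome subunit. With these 2 included the median of the 8 genes was 0.14, with array medians of 0.05 and 0.26. Of the other genes, snrpa, lsm7 and snrpd2 had means below 0, and snrpf, snrpa1 and lsm5 had means above it.

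Only 3 hnRNPs were usable at 24 hpf, because the list of this stage itself had named the others. The hnRNP K-like gene hnrpkl read -0.21 and -3.56, so that array 2 alone set its mean of -1.88 ± 2.37 (SD, n = 2; adjusted p = 0.379 in limma). For hnrnpd, which binds AU-rich mRNA, the values were -0.73 and -0.09, and for hnrnph1, which binds G-rich RNA, they were 0.07 and -0.17. Among the SR proteins, scaf11 read -1.21 and -0.92, with a mean 2.09-fold lower in morphants. It too stands in this stage's list, so this is a description. srsf7b read -1.53 and 0.04 and srsf5b, through its only probe from another list, read -0.04 and 0.66.

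**Figure D2:**
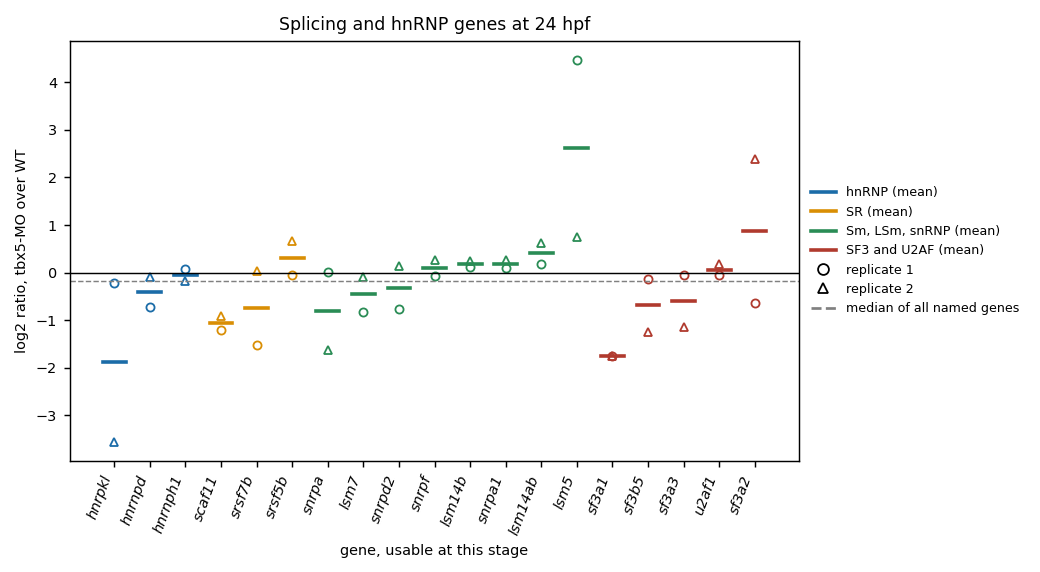
Log2 ratio of tbx5-MO over WT (y axis) of the 19 genes usable at 24 hpf (x axis, coloured by family). Open symbols are the 2 arrays, bars their mean, and the dashed line the median of all named genes, -0.18. The arrays coincide for sf3a1 at -1.75, where the 24 hpf list chose it as low, and lie far apart for hnrpkl, lsm5 and sf3a2.

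At 30 hpf the means of the hnRNPs lay within 1.5-fold of WT. The median of the 28 usable genes was 0.00161, with array medians of 0.10 and -0.08, beside -0.13 over 2453 named genes. The mean lay below 0 for 13 of the 28, or 46.4%, against 58.1% of the named genes, and for 9 of the 28 with the arrays centred on the named genes. It was at least 1.5-fold lower for 1 member, or 3.57%, against 23.3%, and at least 1.5-fold higher for 3, or 10.7%, against 10.5%. Both arrays lay below 0 for 4 members, or 14.3%, against 37.5%, and above 0 for 11, or 39.3%, against 25.7%. In limma 3 of 43406 features passed, which was 0.00691%, and 0 members did. At an unadjusted p under 0.05 there were 2 of 28, or 7.14%, against 10.8% of the named genes. Both shares hold genes that the 30 hpf list chose as low, sf3a1 among them, whose p is no test. Without sf3a1 there was 1 of 27, sf3a2, or 3.7%, against 4.54%. Of these 27, 12 lay below 0, or 44.4%, against 52.9%, and 0 were at least 1.5-fold lower, against 13.9%. The 1 member at least 1.5-fold lower had been sf3a1, so this 0 follows from leaving it out. The share of the named genes fell from 23.3% to 13.9% in the same way, since genes low on both arrays were left out.

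The 11 hnRNPs at 30 hpf had means between -0.34 for hnrnpabb and 0.43 for hnrpkl, and none reached 1.5-fold in either direction. These 2 extremes read -0.07 and -0.60 for hnrnpabb, and 0.21 and 0.65 for hnrpkl. All but 2 of the 11 had been named through the 24 hpf list, in which the same probes were low, and their median at 30 hpf was 0.0015 with array medians of 0.07 and -0.06. With the leading number of the array names as a block, a fit described with the 48 hpf values, this median was -0.27, with 6 of the 11 below 0. Lying above 0 on both arrays were hnrpkl, hnrnpa1b, hnrnpl and hnrnpaba, and lying below 0 on both were hnrnpabb and hnrnph1.

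Of the 4 SR proteins at 30 hpf, srsf7a, a regulator of splicing and of mRNA export, read 0.52 and 1.09 and was 1.75-fold higher on average (adjusted p = 0.644 in limma). srsf2a, which binds exonic enhancers, read 0.68 and 0.10, and scaf11 read 0.09 and 0.38. The fourth, srsf5b, read -0.13 and -0.82 as the mean of 2 probes. Thus 3 of the 4 were above 0 on both arrays, with a median of 0.31. prpf8, the large protein at the catalytic centre of the spliceosome, read 0.81 and 1.26, a mean of 1.04 ± 0.31 (SD, n = 2; adjusted p = 0.614 in limma). The splicing kinase prpf4bb read -0.92 and 0.01.

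The subunits of SF3A read very differently at 30 hpf. sf3a1 read -2.07 and -0.91, a mean of -1.49 ± 0.82 (SD, n = 2), which was 2.80-fold lower than in WT. This is a description, since its probe also stands in the list of this stage. sf3a3 read 0.12 and -0.28. For sf3a2 the values were 8.97 and 0.56, so that its mean of 4.77 rested on array 1, and its adjusted p was 0.555. The Sm, LSm and snRNP proteins had no member past 1.5-fold, with a median of -0.0012. Their means ran from -0.36 for snrpf, with arrays at 0.08 and -0.79, to 0.38 for lsm14b, with arrays at 1.02 and -0.25. In snrpf, snrpd2, snrpc, snrpa1, snrpa and lsm14b array 1 lay above 0 and array 2 below it, and lsm12a and lsm14ab lay above 0 on both.

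**Figure D3:**
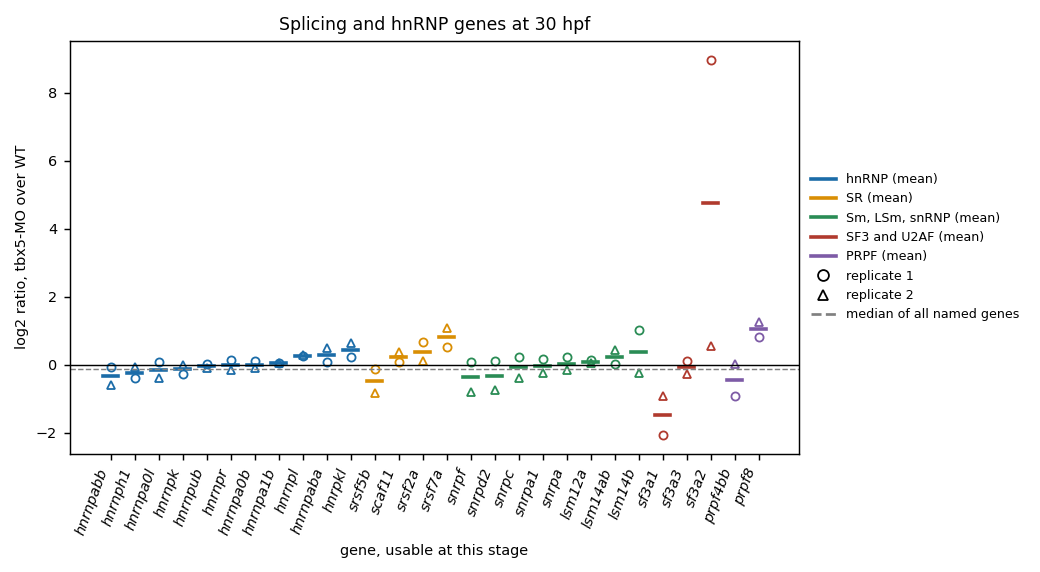
Log2 ratio of tbx5-MO over WT (y axis) of the 28 genes usable at 30 hpf (x axis, coloured by family). Open symbols are the 2 arrays, bars their mean, and the dashed line the median of all named genes, -0.13. The 11 hnRNPs lie between -0.34 and 0.43, and sf3a2 reaches 8.97 on array 1 alone.

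At 48 hpf the families lay on different sides of 0. Of the 10 hnRNPs, 7 had a mean above 0 and 5 were above 0 on all 3 arrays. The Sm, LSm and snRNP family and the SF3 and U2AF family, pooled here, held 8 genes. All 8 had a mean below 0, 6 of them on all 3 arrays. Among those 6 were lsm12a and lsm14ab, which are not known as spliceosome subunits. Over the 25 usable genes together 15 lay below 0, or 60%, against 56.5% of 3333 named genes, and the median was -0.20 against -0.08. At least 1.5-fold lower were 3 members, or 12.0%, against 14.2%, and at least 1.5-fold higher were 2, or 8.0%, against 11.4%. All 3 arrays lay below 0 for 7 members, or 28.0%, against 25.3%, and above 0 for 5, or 20.0%, against 17.6%. Taken over all families, these shares were near those of the other named genes. In limma 0 of 43285 features passed, which was 0%, and 310 of the named genes, or 9.3%, and 1 of 25 members, or 4%, had an unadjusted p under 0.05. That member was scaf11, which the 48 hpf list chose as low, so its p is no test. Without it 0 of 24 had one, against 6.81%, and 14 of 24 lay below 0, or 58.3%, against 54.9%. Of these 24, 2 were at least 1.5-fold lower, or 8.33%, against 11.2%, and 2 higher, or 8.33%, against 11.8%. All 3 arrays lay below 0 for 6, or 25.0%, against 22.6%, and above 0 for 5, or 20.8%, against 18.2%.

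The 5 hnRNPs above 0 on every 48 hpf array were hnrnpub, hnrnpaba, hnrnpl, hnrnpk and hnrnpr, or 50.0% of the 10 against 17.6% of the named genes. hnrnpub, a large nuclear protein that binds chromatin and RNA, read 0.60, 1.00 and 0.73, a mean of 0.78 ± 0.20 (SD, n = 3) and 1.72-fold higher in morphants. hnrnpaba, which binds RNA and single-stranded DNA, read 0.61, 0.39 and 1.11, a mean of 0.70 ± 0.37 (SD, n = 3). Both had an adjusted p of 0.839 in limma. The other 3, named after their values were seen, were smaller. hnrnpl, which binds CA repeats, read 0.36, 0.76 and 0.46, and hnrnpk, which binds C-rich RNA, read 0.47, 0.08 and 1.01. hnrnpr, a relative of syncrip, read 0.33, 0.11 and 0.63.

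The remaining hnRNPs at 48 hpf were not alike on the 3 arrays. hnrnpa0l read -1.42, -0.55 and 0.0071 and was the lowest at a mean of -0.66 ± 0.72 (SD, n = 3; adjusted p = 0.839 in limma). The related hnrnpa0b, which overlaps hnrnpa0l in the reference annotation used for symbols, read -0.84, -0.13 and 0.37, and hnrnpa1b read -0.71, 0.07 and -0.05. On array 1 these 3 genes, all of the hnRNP A group and chosen after their values were seen, were the lowest of the 10. hnrnpabb read -0.55, 0.60 and 1.12 and hnrnpd read 1.02, -0.25 and 0.47. The median of the 10 hnRNPs was 0.40, with array medians of 0.34, 0.09 and 0.55.

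The means of the Sm, LSm and snRNP proteins at 48 hpf were below 0 by small amounts. lsm5 had the lowest mean of the 5, with values of -1.04, -0.43 and 0.14, and lsm7 the highest, with values of -0.45, -0.35 and 0.17. The 3 that were below 0 on all arrays were lsm12a, lsm14ab and snrpc, a U1 snRNP protein. lsm14ab read -0.27, -0.30 and -0.21 as the mean of 2 probes, and its SD of 0.04 was the smallest of any member at 48 hpf. The probes themselves differed, 1 at 0.13, 0.21 and -0.14 and the other at -0.68, -0.81 and -0.29. 2 of the 3 genes below 0 on all arrays, lsm12a and lsm14ab, are the LSm genes not known as spliceosome subunits. The median of the 5 was -0.26 and none reached 1.5-fold.

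Of the U2 proteins at 48 hpf, sf3a1 read -0.92, -0.41 and -0.63, a mean of -0.65 ± 0.26 (SD, n = 3), which was 1.57-fold lower than in WT (adjusted p = 0.839 in limma). sf3b5 read -0.33, -0.11 and -0.03 and u2af1 read -0.04, -0.30 and -0.22. All 3 were thus below 0 on every array, and sf3a1 alone passed 1.5-fold. The PRPF genes were below 0 on average, with prpf8 at -1.33, -0.45 and 0.08 and prpf4bb at 0.09, -0.51 and -0.41.

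The SR proteins at 48 hpf had no common direction. scaf11 was the lowest of all 25 genes, at -1.62, -1.31 and -0.69, a mean of -1.21 ± 0.48 (SD, n = 3), which was 2.31-fold lower than in WT. Its probe also stands in the list of this stage, so this is a description. srsf7b read 1.39, -1.92 and 2.08, with the widest spread of any member at this stage. srsf7a, srsf2a and srsf5b had means of 0.12, 0.25 and -0.25 and differed in sign between arrays.

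**Figure D4:**
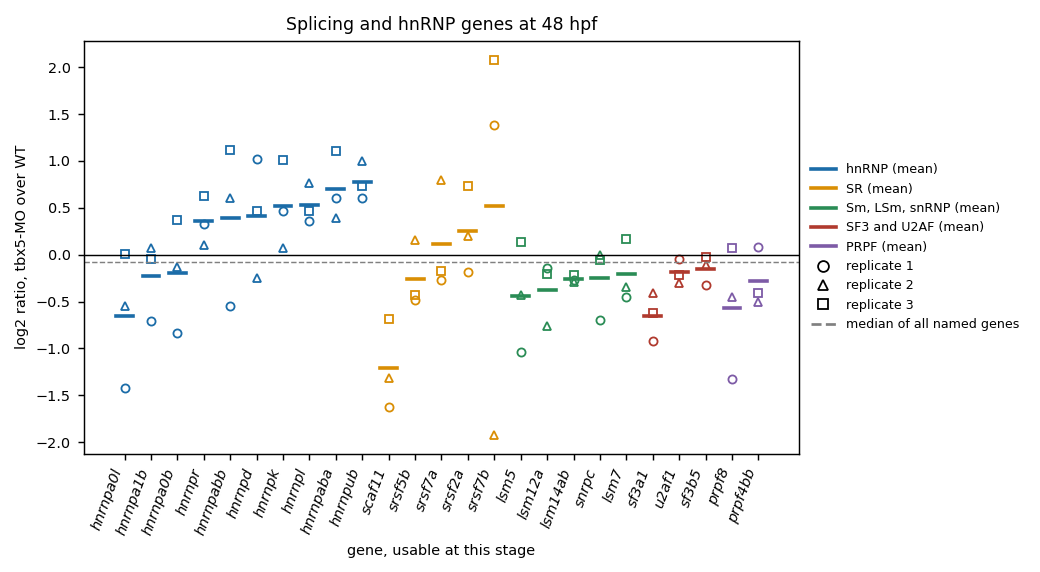
Log2 ratio of tbx5-MO over WT (y axis) of the 25 genes usable at 48 hpf (x axis, coloured by family). Open symbols are the 3 arrays, bars their mean, and the dashed line the median of all named genes, -0.08. The means of 7 of 10 hnRNPs lie above 0, and those of all 5 Sm, LSm and snRNP genes and all 3 SF3 and U2AF genes below it.

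The split between the families at 48 hpf was also found when any 1 array was left out. The means of 7 to 9 of the 10 hnRNPs then lay above 0 and those of 8 of 8 snRNP and U2 genes below it. Each such fit reuses 2 of the 3 arrays on which the split was seen, so it is no separate test. On single arrays, lsm5 and lsm7 lay above 0 on array 3, and hnrnpa0l, hnrnpa0b, hnrnpa1b and hnrnpabb below 0 on array 1. The split did not hold when the leading number of the array names, whose meaning no source used here gives, was fitted as a block. In that fit 7 of the 10 hnRNPs were above 0, with a median of 0.15, but 3 of the 8 snRNP and U2 genes were below 0, with a median of 0.16, and hnrnpub was at -0.11. Array 1 of 24 hpf and both arrays of 30 hpf carry 1 such number, and array 2 of 24 hpf and the 3 arrays of 48 hpf carry the other. The pair of 24 hpf arrays alone holds both, so the block takes its size from the stage at which most member probes were chosen. Beyond that pair, the number and the difference between 30 and 48 hpf cannot be told apart.

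A difference between stages was tested only over genes named through the list of the third stage. For 48 minus 30 hpf these were 19 genes of the 24 hpf list. The median difference was -0.14, beside 0.02 over 1938 named genes, and 10 of the 19 differences were negative, against 48.6%. At least 1.5-fold lower at 48 hpf were 4 of the 19, against 19.4% of the named genes, and at least 1.5-fold higher were 4, against 25.3%. In limma 0 of 43504 features passed, which was 0%, and 2 of the 19 members, or 10.5%, had an unadjusted p under 0.05, against 11% of the named genes. Without scaf11 and sf3a1, 3 of 17 were at least 1.5-fold lower and 3 of 17 higher, against 19.6% and 17.9%, and an unadjusted p under 0.05 was found in 1 of 17, or 5.88%, against 4.86%. That gene was prpf8, which differed by -1.60 ± 0.61 (SE; adjusted p = 0.654). srsf7a had a difference of -0.69. The difference of scaf11 was -1.44, a description, since the 48 hpf list chose it as low.

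In the other direction, hnrnpub differed by 0.82 between 48 and 30 hpf and hnrnpabb by 0.72, with adjusted p-values in limma of 0.783 and 0.807. The difference of sf3a1, 0.83, is a description, since the 30 hpf list chose it as low. On the 30 hpf arrays hnrnpub read 0.02 and -0.09. By family, 6 of the 9 hnRNPs had a positive difference, with a median of 0.35, beside 996 of 1938 named genes. A negative difference was found in 3 of 3 Sm, LSm and snRNP genes, with a median of -0.46, against 48.6% of the named genes. Among these, lsm12a and lsm14ab are not known as spliceosome subunits, and snrpc differed by -0.185 ± 0.50 (SE).

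For 30 minus 24 hpf, 11 genes of the 48 hpf list had a median difference of 0.20, equal to that over 627 named genes, and 5 of the 11 differences were negative, against 41.3%. At least 1.5-fold higher at 30 hpf were 4 of the 11, against 36.7%, and 0 were at least 1.5-fold lower, against 19% of the named genes. 1 of 43601 features passed in limma, which was 0.00229%, and 0 members did. hnrpkl differed by 2.31 ± 1.01 (SE; adjusted p = 0.601), but by 0.64 without array 2 of 24 hpf and by 3.99 without array 1. sf3a2 differed by 3.89 ± 2.41 (SE; adjusted p = 0.640), but by -0.31 without array 1 of 30 hpf and by 8.1 without array 2. The difference of scaf11, 1.3, is a description, since the 24 hpf list chose it as low, and without it the median of the other 10 genes was 0.10, beside 0.16. The lowest differences, -0.45 for lsm14ab, -0.45 for snrpf and -0.21 for snrpa1, were each smaller than their standard errors.

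For 48 minus 24 hpf, 8 genes of the 30 hpf list had a median difference of 0.39, beside 0.15 over 1695 named genes. Of the 8, 3 were negative, against 43%, with 2 at least 1.5-fold lower against 21.9% and 3 at least 1.5-fold higher against 31.4%. Again 1 feature passed in limma, of 43503 or 0.0023%, and 0 members did. lsm5 differed by -3.05 ± 1.04 (SE; adjusted p = 0.604). Without array 1 of 24 hpf the difference was -1.19, and without array 2 it was -4.92. The next lowest were srsf5b at -0.59 and u2af1 at -0.25. The highest were srsf7b at 1.26, sf3a1 at 1.1 and hnrnpd at 0.83. That of sf3a1 is a description, since the 24 hpf list chose it as low. Without it the median of the other 7 genes was 0.24, beside 0.04.

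Across all 7 arrays, with the stage of their own lists included and so as a description, sf3a1 and sf3b5 lay below 0 on each array. On 6 of the 7 arrays this was so for u2af1, sf3a3, lsm7, snrpc, hnrnph1 and srsf5b. At the other end, hnrnpaba and hnrnpl lay above 0 on 5 arrays, all those that had not chosen them. prpf8 was below 0 on both 24 hpf arrays, which chose it, above 0 on both 30 hpf arrays and below 0 on 2 of 3 arrays at 48 hpf.

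For 6 genes there was more than 1 probe. The probes of a gene lay a median of 0.98 and 1.37 apart on the 24 hpf arrays, 0.34 and 0.54 on the 30 hpf arrays, and 0.39, 0.22 and 0.58 on the 48 hpf arrays. The widest gaps were at 24 hpf, 5.16 for hnrnpub on array 1 and 4.54 for snrpa on array 2. The probes of hnrnpl stayed within 0.29 of each other on every array, and those of hnrnpaba within 0.91 at 48 hpf. At 48 hpf both probes of hnrnpub, of hnrnpl and of hnrnpaba lay above 0 on every array. The 3 probes of lsm14ab disagreed in sign at 24 hpf, where the probe from the 48 hpf list read 0.19 and 0.62 and those from the 24 hpf list read -1.28 and -1.71, and -0.96 and -2.65. The 3 probes of srsf5b likewise disagreed, at -0.04 and 0.66 for the probe of the 30 hpf list against -2.06 and -1.05 for 1 of the 24 hpf list.

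**Figure D5:**
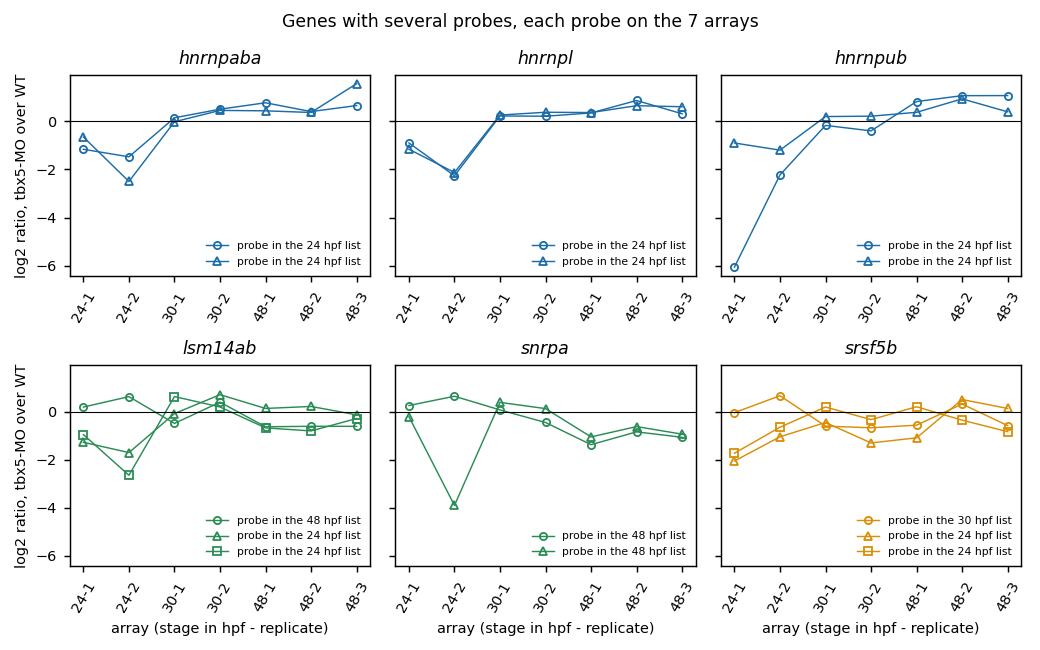
Log2 ratio of tbx5-MO over WT (y axis) on the 7 arrays (x axis) for the 6 genes with several probes, each line a probe and its legend naming the list it came from. The probes of hnrnpl run together, whereas those of hnrnpub part by 5.16 on the first 24 hpf array.

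Other splicing genes came from a written list of 210, less any that the symbol rule takes, such as scaf11. Of these, 58 stood in the authors' lists of lower probes, and armc7 among them was used at no stage. At 24 hpf 16 of 29 lay below 0, with a median of -0.18. At 30 hpf 17 of 43 did, with a median of 0.11. At 48 hpf this was so for 37 of 50, with a median of -0.24. The share below 0 at 48 hpf was 74% against 56.5% of the named genes, and 19 of the 50 were below 0 on all arrays, or 38%, against 25.3%. Without the genes that the stage's own list also holds, 12 of 25 lay below 0 at 24 hpf, or 48.0%, against 55.6%, and the median was 0.05. At 30 hpf 12 of 38 then lay below 0, or 31.6%, against 52.9%, with a median of 0.12. At 48 hpf 36 of 49 then lay below 0, or 73.5%, against 54.9%, with a median of -0.21. 0 passed in limma at any stage. At an unadjusted p under 0.05 there were 31% at 24 hpf, 4.65% at 30 hpf and 8% at 48 hpf, against 15.1%, 10.8% and 9.3% of the named genes. Those shares were 28.0%, 0.0% and 6.12% without the genes of the stage's own list, against 7.24%, 4.54% and 6.81%. The genes behind the 28.0% at 24 hpf lay on both sides of 0. elavl1a, msi2b and celf2 had means below 0, and clasrp, txnl4b, dhx35 and syf2 had means above it. clasrp read 3.67 and 2.68 (adjusted p = 0.136 in limma), whereas syf2 read 8.61 and 0.11. The examples that follow were chosen after their values were seen. At 48 hpf the spliceosome protein smu1a, from the 24 hpf list, read -0.86, -0.49 and -0.80. The SF3B subunit phf5a, from the same list, read -0.51, -0.45 and -0.75. nono, an RNA-binding protein of nuclear paraspeckles, read 1.01, 0.77 and 0.80, on the side of the hnRNPs. The U2-associated u2surp, which the 24 and 30 hpf lists chose as low, read 1.04, 1.53 and 2.94 on the 48 hpf arrays.

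Other gene groups had medians that differed between the stages on these whole-embryo arrays, in which fewer cells of a type and less RNA per cell cannot be told apart. Skeletal muscle genes had medians of -1.29 at 24 hpf (19 of 20 below 0), -1.53 at 30 hpf (15 of 16) and 1.02 at 48 hpf (1 of 19). Neuronal genes had medians of -0.86 (12 of 14 below 0), -1.13 (9 of 9) and 0.64 (3 of 15). Cytosolic ribosomal protein genes had medians of 0.27 (9 of 41 below 0), -0.89 (12 of 12) and -0.53 (37 of 41), and replication genes, the mcm helicase and pcna, had medians of -1.01 (5 of 5 below 0), -0.05 (3 of 5) and -0.36 (3 of 3). Many of these genes stand in the stage's own list and are low there by choice. Without those, muscle medians were -0.57, -0.37 and 1.04 over 8, 3 and 18 genes, and neuronal medians were -0.26, -0.24 and 0.64 over 7, 2 and 15 genes. Ribosomal protein medians were then 0.30, -0.57 and -0.43 over 39, 3 and 34 genes, and replication medians -0.69, -0.05 and -0.22 over 4, 5 and 2 genes. Leaving genes out in this way takes away only low values, so by itself it moves these medians up. The part of these gene groups in the values of the splicing genes was not tested. By median, the hnRNPs at 48 hpf lay on the same side of 0 as the muscle and neuronal genes, and the snRNP and U2 proteins on that of the ribosomal protein and replication genes. Both parts of this were found together at 48 hpf alone, but each part was also found at another stage. At 24 hpf the hnRNP median, -0.41, was below 0 like those of muscle and neuronal genes. The ribosomal protein and replication medians there, 0.27 and -1.01, had opposite signs. At 30 hpf the hnRNP median was 0.0015, beside -1.53 for muscle and -1.13 for neuronal genes. Without the genes of the 30 hpf list the muscle and neuronal medians were -0.37 and -0.24. The Sm, LSm and snRNP median, -0.0012, and the SF3 and U2AF median, -0.08, were below 0 there, as were the ribosomal protein and replication medians.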

How the data were processed

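Log2 ratios per probe were deposited by the authors, who scanned the arrays on a GenePix scanner and normalized them in GeneSpring GX by steps not given in the sources used here. No genome build was used. The deposited value table held no gene names. The authors' lists of lower probes, also in log2, were matched to it by their values on the arrays of the stage, which placed 6662 of 6740 probes on 1 row each, all 42 members among them. Symbols were updated through Entrez numbers in a RefSeq table. limma 3.58.1 in R 4.3.3 fitted stage means to all 7 arrays and tested them two-sided against 0, or against each other, at an adjusted p of 0.05. Probes of a gene that the other stages' lists named were averaged. A fold of 1.5 was counted with no test. The fit was run on simulated independent normal noise with planted changes. That run required only that the median estimate be near the planted change. It held none of the repeated values of these arrays, so it is no check of the p-values given here. Members, gene lists and tests were chosen with earlier results of these data known. Named were members that passed, up to 5 at each end past 1.5-fold on 1 side of 0 on every array, the extremes of each family, members of several lists and the 3 extreme stage differences at each end. Alternatives were centring, scaling, single-stage fits, blocks, probe choices, repeated values, a 2-fold limit and each array left out.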

Additional observations from a re-analysis of the deposited data

Results flagged for a closer look

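The median log2 ratios of the hnRNPs were -0.41 (3 genes) at 24 hpf and 0.40 (10 genes) at 48 hpf, beside -0.18 and -0.08 over the named genes. The median of each array of a stage had the sign of its stage. At 24 hpf the median is that of 1 gene, hnrnpd, at -0.73 and -0.09. With arrays centred on the named genes it was -0.25, with 2 of the 3 below 0. Without values shared by more than 10 probes, hnrpkl was the only hnRNP left at 24 hpf. The Sm, LSm and snRNP proteins had medians of 0.14 over 8 genes at 24 hpf and of -0.26 over 5 genes at 48 hpf. The 8 include lsm14b at 0.18 and lsm14ab at 0.40, which are not known as spliceosome subunits. Without these the signs at 24 hpf were evenly split, with snrpa, lsm7 and snrpd2 below 0 and snrpf, snrpa1 and lsm5 above it. In the main fit the medians of the 2 families are -0.414, 0.402, 0.135 and -0.261 before rounding to 2 decimals. The difference between the stages was not tested, and at 24 and 48 hpf the medians rest on mostly different genes, since a gene was used only through the list of another stage. With all placed probes of a gene the Sm, LSm and snRNP median at 24 hpf was -0.11. That setting adds probes that the 24 hpf list itself chose as low, so its sign is not independent of the choice. With the leading number of the array names as a block the median was 0.27 at 48 hpf, and in that fit the stages no longer lay on opposite sides of 0. Groups of 2 or 3 arrays were too small to look for single arrays far from the rest.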

How the results depend on the processing

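The number of members passing limma was 0 at each stage and for each difference. At 24 hpf it was 2 (hnrpkl and lsm5) with the leading number of the array names as a block. In that fit 568 of 43425 features passed as lower and 1455 as higher, against 13 in the main fit, so these 2 members are not singled out. Fits that leave out 1 array of 24 or 30 hpf assume that the lone array left varies like the other stages, so no passing members are counted for them. The median of the members at 24 hpf, -0.318, was -0.156 with arrays centred on the named genes and -0.184 with single probes. It was -0.454 with all placed probes of a gene, a setting that adds probes the 24 hpf list chose as low. Without the genes that the list of the stage also holds, a setting added after seeing the data, it was -0.0499. With 1 array left out it was -0.0804 to 0.0398. The number block gave 0.0947 for the median at 48 hpf. With a replicate block the 24 hpf median was -0.0161, the 30 hpf median was 0.141, and 0 members passed. Deviations of same-numbered arrays correlated by -0.01 to 0.02. With 2 arrays at a stage the deviations mirror each other, so these values cannot decide whether the numbers pair the arrays. The authors' 24 hpf list gives the number 3 to the array used here as replicate 2. Single genes that changed sign at 24 hpf were hnrnph1 (0.112 centred on the named genes, -0.172 to 0.0727 with 1 array left out), srsf5b (-0.0437 to 0.658 with 1 array left out), sf3a2 (-0.64 to 2.39) and snrpa (0.444 for 1 probe, -1.63 to 0.0195). With all placed probes srsf5b was at -0.812, but the probes added there were chosen as low by the 24 hpf list. At 30 hpf they were hnrnpabb (0.0288 with the replicate block), hnrpkl (-1.25) and srsf5b (0.0453) with the number block, and with 1 array left out lsm14b (-0.255 to 1.02), prpf4bb (-0.924 to 0.00933) and snrpf (-0.794 to 0.0817). At 48 hpf the number block gave -0.105 for hnrnpub, 1.42 for lsm5, 0.401 for sf3b5 and -0.271 for srsf7b, which ran from -0.269 (without array 3) to 1.73 with 1 array left out. For 30 minus 24 hpf sf3a2 ran from -0.314 (without array 1 of 30 hpf) to 8.1. A 2-fold limit left 3 members lower (7 at 1.5-fold) and 1 higher (2) at 24 hpf. It left 1 lower (3) and no member higher (2) at 48 hpf. The causes were not tested. In the other combinations, 88 of the member counts and medians and 603 of single genes, families and fold counts stayed within the spread between arrays or on their side of the threshold, a spread that is wide at 24 hpf, and 32 family medians and fold counts moved further. Signal over background is unknown here.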
